A study of Oryza sativa with 12 samples.

Results

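The early response of rice shoot apices to induction of an *OsWOX4* RNAi construct was examined by comparing the 3 arrays of DEX treatment for 3 h with the 3 arrays of mock treatment for 3 h. These 6 arrays are part of a set of 12, and the other 6 hold the same comparison after 12 h. All arrays of both 3 h groups were used, and no value was used to choose them. The seedlings, of the Taichung 65 background, carried *pACT1-GVG>OsWOX4:RNAi* and were treated at 5 days after germination. GVG is a chimeric transcription factor that is driven here by the promoter of the actin gene *ACT1*, and it is held back until it binds the glucocorticoid analog dexamethasone (DEX), upon which it activates transcription of the RNAi construct. The DEX group was kept in liquid medium with 10 µM DEX and the mock group in medium without it. The mock plants carry the same transgenes. Wild-type plants given DEX were not analysed here, and responses to DEX or to active GVG cannot be told apart from those to silencing of *OsWOX4*. RNA came from dissected shoot apices, which hold the shoot apical meristem (SAM) and leaf primordia, with 1 array per biological replicate.

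*OsWOX4* encodes a transcription factor of the WUSCHEL-RELATED HOMEOBOX (WOX) family. WOX proteins act in stem cell niches and in growing lateral organs, and WOX genes of this branch are known for roles in the meristem and in the vasculature. Auxin and cytokinin are hormones with known links to WOX genes: auxin induces Aux/IAA repressors and GH3 enzymes within a short time, and cytokinin induces the type-A response regulators, which dampen its own signal.

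The table holds 54922 rows of log2 signal, and the annotation used here pairs 15829 of them with 1 gene, 440 with more than 1 and leaves 38653 unpaired. The rows with 1 gene cover 15140 genes, and each gene is given below by its row with the highest mean over the 12 arrays, DEX arrays included. Only 1669 of these genes have a printable name, and the others go by their gene ID. The gene lists below were filled by symbol and synonym, so family members without a matching name are missing. Counts and medians given for a family refer to its listed members only. Signals are given on the linear scale, as 2 to the power of the deposited value. A gene is said to have risen or fallen only where the adjusted p of the limma fit over all 12 arrays was under 0.05. The precision is set by the 3 arrays per group and by a spread estimated over all 12 arrays. The Pearson correlation across rows was 0.986 to 0.987 between replicate arrays of a 3 h group and 0.983 to 0.988 between mock and DEX arrays. The median log2 signal was 5.73 in 5 of the 6 arrays and 5.76 in replicate 3 of the mock group, and the median log2 fold change over all rows was -0.01. Because the RNA is that of whole apices, more cells of a type and more RNA per cell cannot be told apart.

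The tissue was checked against marker genes. *OSH1*, a KNOX gene that marks the SAM, had signals of 89.7, 103 and 89.0 under mock treatment and 107, 80.6 and 88.6 under DEX. *DL*, a YABBY gene expressed in the center of rice leaf primordia, had signals of 379, 383 and 357 against 427, 365 and 367, so its groups overlapped. The summed signal of the 9 markers of the apex and primordia ran from 2390.0 to 2497 in the mock arrays and from 2755 to 2970.0 in the DEX arrays, and 1 of the 9, *YAB5*, rose. The higher sum came mainly from *YAB5*, with group means of 734 and 1079, and *YAB4*, with 229 and 314. The log2 fold changes of the other markers lay between -0.06 and 0.07. The summed signal of 3 light-harvesting genes of mature green leaf was 2076 to 2297 in the mock arrays and 1787 to 1979 in the DEX arrays, with none of the 3 past the test. The 5 markers of dividing cells summed to 2988 to 3186 and to 2935 to 3177, and none passed. The 2 root markers were dim, with sums of 43.2 to 56.9 and 51.5 to 68.4. The part of a change in tissue in the results below was not tested.

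After 3 h of DEX, 79 of the 15140 genes (0.522%) rose and none fell (0.0%). Across all rows, 132 were higher (0.24%) and 2 were lower (0.00364%), and 81, 1 and 50 of the higher rows are paired with a single gene, several genes and no gene. The 81 rows are 0.512% of those with a single gene. By the limits of at least 2.0-fold and an unadjusted p under 0.01, 55 single-gene rows (0.347%) were higher and none was lower (0.0%). Of the 79 genes, 44 had a fold change of at least 2.0 and 4 of at least 4-fold. The log2 fold changes ran from 0.55 to 3.98 with a median of 1.10. The mean mock signal of these genes spanned 5.25 to 1638, with a median of 108.1. It was under 32 in 7 of the 79, so few risers were dim under mock treatment. For each of the 79 genes, every DEX array was above every mock array. Among single-gene rows at large this held for 6.75%, and the opposite order for 5.32%. The 79 genes were chosen by a test on these same arrays, so their order is a description only. At an unadjusted p under 0.01, 285 genes were higher and 62 were lower. An exact permutation test of 3 arrays against 3 cannot go below a p of 0.1, so the calls rest on limma, whose estimate of the spread is shared over 12 arrays.

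**Figure D1:**
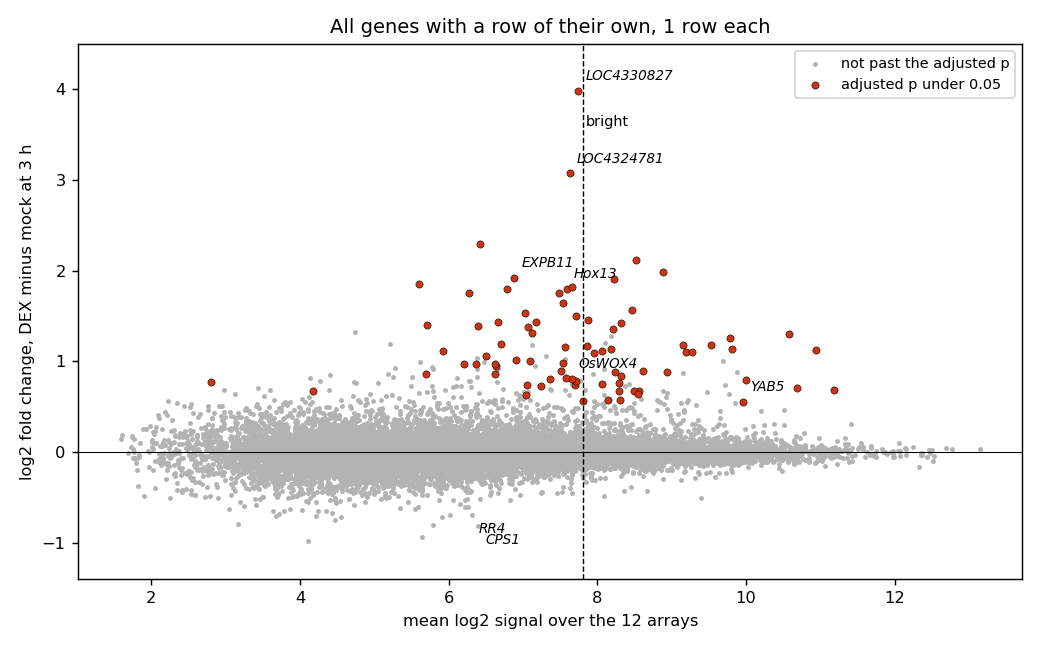
Log2 fold change of DEX over mock at 3 h (vertical axis) against the mean log2 signal over the 12 arrays (horizontal axis) for each of 15140 genes, with the 79 genes at an adjusted p under 0.05 in red and the limit for bright genes (7.80) as a dashed line. All red points lie above 0, from 0.55 to 3.98, and they span dim and bright genes.

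The largest rise was that of LOC4330827, a gene with no printable name. Its signal was 42.5, 43.8 and 28.4 under mock treatment and 866, 565 and 426 under DEX, a 15.8-fold difference (log2 3.98, SE 0.23, adjusted p = 3.73e-05). LOC4324781 had 43.9, 49.2 and 52.0 under mock treatment and 559, 349.8 and 342 under DEX, which is 8.41-fold (adjusted p = 3.73e-05). In both genes the lowest DEX array exceeded the highest mock array by several-fold. LOC4339548 went from 22.3, 19.3 and 20.5 to 119, 92.4 and 93.3, a 4.89-fold rise (adjusted p = 1.24e-05), and LOC4327364 from 131, 146 and 120.5 to 790.2, 520.1 and 454, a 4.33-fold rise (adjusted p = 0.000334). LOC4330827, LOC4324781 and LOC4339548 were the genes that also passed when only the 6 arrays of 3 h were fitted (adjusted p = 0.0423, 0.0318 and 0.0203), where 3 single-gene rows passed in all.

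Among the 20 risers with a printable name, the largest log2 fold change belonged to *EXPB11*, which encodes a β-expansin, a protein that loosens cell walls. Its signal was 30.9, 52.8 and 45.0 under mock treatment and 203, 160.0 and 122.9 under DEX (log2 fold change 1.92, SE 0.26, adjusted p = 0.0109). It was the only riser of 27 expansin genes, whose median was 0.04. *EXPB3* had 140.4, 352 and 232 against 486, 542 and 266, with overlapping groups (adjusted p = 0.799).

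Auxin-related genes were represented by an Aux/IAA gene and by 2 GH3 genes. *IAA26* encodes an Aux/IAA protein, a repressor of auxin-responsive transcription, and its signal was 25.1, 30.8 and 39.0 under mock treatment and 172, 90.0 and 91.1 under DEX (log2 fold change 1.85, SE 0.26, adjusted p = 0.0137). Replicate 1 stood well above the others in the DEX group. *IAA26* was the 1 riser of 19 Aux/IAA genes measured, whose median was 0.06, beside a median of 0.00 over all genes. *IAA12* had 53.7, 86.2 and 46.1 against 90.2, 111 and 95.2, a difference that did not pass (log2 fold change 0.72, SE 0.20, unadjusted p = 0.00469, adjusted p = 0.418). A further pair lay lower in every DEX array without passing: *IAA7* with 118, 126 and 133 against 97.2, 90.0 and 89.2 (adjusted p = 0.134) and *IAA24* with 121, 139 and 117 against 83.4, 109 and 97.6 (adjusted p = 0.528). The family thus held values on both sides of 0, from -0.45 to 1.85.

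Many GH3 enzymes conjugate amino acids to auxin and lower its free level. The list was filled by name and not by substrate. *GH3.1* had signals of 127, 111 and 95.4 under mock treatment and 419.6, 301 and 327 under DEX (log2 fold change 1.65, SE 0.19, adjusted p = 0.00396), and *GH3-8* had 86.5, 110.1 and 88.9 against 299, 284 and 224 (log2 fold change 1.5, SE 0.15, adjusted p = 0.0016). In both, every DEX array was more than 2-fold above the highest mock array. They were 2 of 7 GH3 genes. The other 5 gave log2 fold changes of 0.23 for *GH3.2*, 0.06 for *GH3.5*, -0.29 for *GH3.6*, 0.19 for *GH3.7* and 0.07 for *GH3.11*, with adjusted p of 0.821 or more. No ARF gene rose among 12 (median 0.12). Of these, *OsETTIN2*, a relative of the Arabidopsis auxin response factor gene *ETTIN*, had 239, 212 and 223 against 367, 271 and 326 (adjusted p = 0.252). None of 5 auxin transport genes passed. *ASA2*, which encodes a subunit of anthranilate synthase, the entry enzyme of tryptophan synthesis, had signals of 283, 258 and 246 against 638, 570.2 and 484 (log2 fold change 1.10, SE 0.13, adjusted p = 0.00535).

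Several named risers belong to families of transcription factors. HD-ZIP proteins are homeodomain factors particular to plants, and 4 of 21 members rose while none fell, with a list median of 0.00. *Hox13* had 72.7, 68.6 and 69.5 under mock treatment and 305, 211 and 226 under DEX (log2 fold change 1.80, SE 0.13, adjusted p = 0.000169), and its 3 mock arrays differed little from each other. *HOX4* had 197, 177 and 187 against 498, 346 and 400.3 (log2 fold change 1.13, SE 0.14, adjusted p = 0.00663) and *HOX3* 45.8, 54.4 and 63.9 against 127.8, 89.5 and 104 (log2 fold change 0.97, SE 0.15, adjusted p = 0.0277). *Roc4*, of the class IV genes known from the epidermis, had 44.8, 59.0 and 48.2 against 114, 93.2 and 86.3 (log2 fold change 0.95, SE 0.13, adjusted p = 0.0123). The 4 genes of class III, which act in the upper side of leaves and in the vasculature, did not pass, with log2 fold changes from -0.11 to -0.02. *HOX10* of this class was bright and had 794, 772 and 774 against 714, 724 and 725, slightly lower in every DEX array (adjusted p = 0.987).

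DOF proteins are zinc finger factors of plants. *DOF4* had signals of 430.4, 489 and 354 under mock treatment and 1040.0, 967 and 778 under DEX (log2 fold change 1.13, SE 0.14, adjusted p = 0.00539), and *DOF5* had 234, 258 and 239 against 432, 367 and 368 (log2 fold change 0.67, SE 0.11, adjusted p = 0.0334). They were 2 of the 4 DOF genes listed, and the list median was 0.58. The remaining members were *DOF1*, with 135, 132 and 145 against 226, 188 and 167 and arrays fully apart (adjusted p = 0.439), and *DOF2*, with 171, 174 and 157 against 208, 196 and 162 and overlapping arrays (adjusted p = 0.988). *HSFA4B*, a heat shock factor gene, had 70.7, 80.0 and 60.8 against 170.1, 137 and 120.0 (log2 fold change 1.01, SE 0.14, adjusted p = 0.0108) and was the 1 riser among 14 of its kind. None of 12 heat shock protein genes passed, with log2 fold changes between -0.26 and 0.21. *OsC3H50*, which encodes a CCCH zinc finger protein, had 166, 177 and 174 against 393, 266 and 302 (log2 fold change 0.88, SE 0.13, adjusted p = 0.0234).

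YABBY genes act in the outgrowth and the polarity of leaves. *YAB5* was the smallest change to pass in any gene: its signal was 723, 716 and 762 under mock treatment and 1116, 990.1 and 1132 under DEX (log2 fold change 0.55, SE 0.09, adjusted p = 0.0246). *YAB4* was next, with 231, 231 and 225 against 324, 324 and 296, and did not pass (log2 fold change 0.46, SE 0.09, unadjusted p = 0.000335, adjusted p = 0.098). The other 4 members were level, with log2 fold changes of -0.01 for *YAB1* (0.004 after median centring of the arrays), 0.01 for *YAB2*, -0.06 for *YAB3* and 0.05 for *DL*. Their 95% intervals were -0.30 to 0.29, -0.24 to 0.26, -0.43 to 0.32 and -0.25 to 0.34, which leave out a change of 2-fold in either direction.

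*OsWOX4* itself had signals of 117, 139.7 and 142 under mock treatment and 194, 245 and 262 under DEX (log2 fold change 0.81, SE 0.13, adjusted p = 0.0372). The row may pick up RNA made from the construct together with the endogenous mRNA, so the value checks neither the labels nor the silencing. In the same limma fit the row was higher at 12 h as well (log2 fold change 1.54, adjusted p = 3.27e-06). The paper examined *OsWOX4* mRNA by RT-PCR after 12 h of DEX, and the legend of that figure names no sample of 3 h. The other WOX genes of the list, which was filled by name, did not pass. *WOX6* had 11.7, 15.2 and 15.7 against 14.2, 15.2 and 17.5 and *WOX7* 18.1, 17.5 and 16.2 against 18.8, 18.2 and 17.1. *QHB*, the WOX gene of the root quiescent center, had 15.98, 17.7 and 16.6 against 24.4, 17.5 and 19.3. The paper reports array levels for more WOX genes than these. All 3 were dim, and their 95% intervals for the log2 fold change were -0.22 to 0.52, -0.16 to 0.29 and -0.17 to 0.71.

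The remaining named risers act in signaling, the cell wall and metabolism. *PGIP-1* encodes an inhibitor of polygalacturonases, enzymes that degrade pectin, and was bright, with 996, 1206 and 947 under mock treatment and 2585, 2211 and 2057 under DEX (log2 fold change 1.12, SE 0.12, adjusted p = 0.00253). *CIPK21*, a protein kinase gene of calcium signaling, had 126, 154 and 138 against 381, 249.8 and 286 (log2 fold change 1.12, SE 0.16, adjusted p = 0.0144) and was the 1 riser of 40 CIPK, CBL and CDPK genes (median 0.02). *OsPP2C09*, a protein phosphatase gene, had 81.9, 77.5 and 86.4 against 136, 152 and 124 (log2 fold change 0.74, SE 0.12, adjusted p = 0.0387) and was the 1 riser of 32 PP2C genes (median 0.02). *4CLL4*, which encodes a 4-coumarate-CoA ligase-like protein, had 89.2, 99.6 and 74.8 against 181, 157 and 149 (log2 fold change 0.89, SE 0.12, adjusted p = 0.0094). *PSS2* had 60.8, 73.8 and 61.8 against 365, 213 and 155 (log2 fold change 1.81, SE 0.24, adjusted p = 0.0094), with DEX replicate 1 more than 2-fold above replicate 3. Just outside the limit lay *IMCEL2* with 72.5, 76.2 and 58.6 against 194, 138 and 108 (adjusted p = 0.0514) and *Os4CL3*, of the phenylpropanoid pathway, with 91.0, 108 and 86.0 against 338, 211 and 169.7 (adjusted p = 0.0527). Just inside it lay LOC9270735, LOC4339571 and LOC4324902, with adjusted p of 0.0425, 0.0445 and 0.0446.

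**Figure D2:**
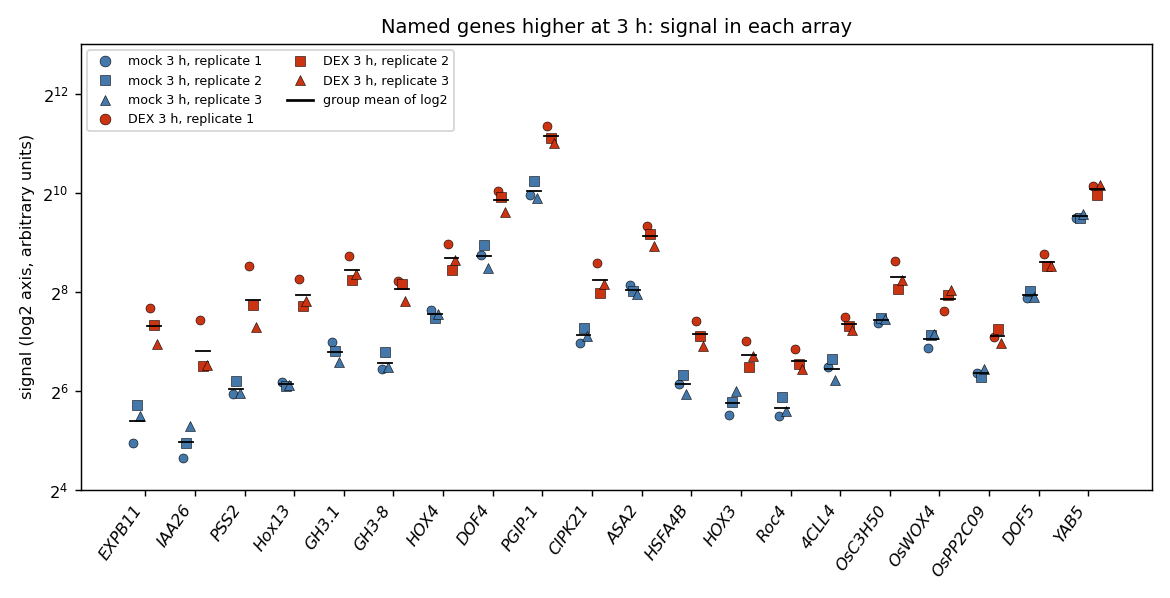
Signal (log2 axis) of the 20 named genes that rose, in each mock (blue) and DEX (red) array of 3 h, with the marker shape giving the replicate and a bar the group mean of the log2 values. Genes are ordered from the largest log2 fold change (*EXPB11*, 1.92) to the smallest (*YAB5*, 0.55), and DEX replicate 1 is the highest DEX point in most of them.

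The DEX arrays were not alike in the size of the response. In 70 of the 79 genes that rose, DEX replicate 1 was the highest of the 3 DEX arrays, and in 4 and 5 genes it was replicate 2 and replicate 3. Over all 15140 genes, replicate 1 was the highest DEX array in 33.4%, replicate 2 in 34.2% and replicate 3 in 32.5%. Among the mock arrays of the 79 genes, replicate 1, 2 and 3 were highest in 19, 41 and 19 genes. The 79 genes were chosen on these same arrays, so these counts are a description. Without DEX replicate 1, 54 of the 79 genes passed. All 79 kept a positive log2 fold change, which was fixed in advance because every DEX array was above every mock array.

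The calls also depended on the mock arrays. Without mock replicate 1, 37 of the 79 genes passed, without replicate 2 53 and without replicate 3 40; without DEX replicate 2 and 3 the counts were 62 and 57. A total of 36 genes passed without any single array, among them *Hox13*, *GH3.1*, *GH3-8*, *HOX4*, *DOF4*, *PGIP-1* and *ASA2*. *EXPB11*, *PSS2*, *Roc4*, *HSFA4B* and *CIPK21* did not pass without mock replicate 1 or without mock replicate 3, nor *IAA26* without mock replicate 1 or 2, and *4CLL4* did not pass without mock replicate 1. *OsWOX4*, *HOX3*, *YAB5*, *OsC3H50*, *DOF5* and *OsPP2C09* each lost their call in 4 or more of these 6 fits.

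Bright genes are those whose mean over the 12 arrays lay in the upper quartile of single-gene rows, at a log2 signal of 7.80 (a signal of 223) or more. Of 3908 bright genes, 36 rose, and as rows 37 of 3958 did (0.935%). Of the risers, 45.6% thus lay in the upper quartile, where the SE of a log2 fold change was smaller as well (given below). That mean includes the DEX arrays of both times, so a gene that DEX raised enters the bright class more easily. LOC4326678 is bright by it, with mean mock signals of 94.3 at 3 h and 83.6 at 12 h and a DEX mean of 3046 at 12 h. The share of bright genes among the risers is therefore a description only. Beside *PGIP-1*, the brightest were LOC4329817, with 1713, 1734 and 1466 under mock treatment and 2791, 2616 and 2481 under DEX (log2 fold change 0.69, SE 0.10, adjusted p = 0.0132), and LOC4323865, with 1134, 1185 and 1188 against 2104, 1784 and 1858 (log2 fold change 0.71, SE 0.09, adjusted p = 0.00657). Both changes were under 2-fold. LOC4339718 had 872, 792 and 666 against 2300.0, 1745 and 1722 (log2 fold change 1.3, SE 0.13, adjusted p = 0.0016), LOC4327090 532, 615 and 397 against 1384, 1171 and 1093 (1.26, SE 0.17, adjusted p = 0.0094) and LOC4327386 396, 432 and 364 against 1106, 849 and 771 (1.18, SE 0.14, adjusted p = 0.00535). In these 5 genes no DEX array overlapped the mock arrays.

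Most bright genes moved little. Their median log2 fold change was 0.00 and the middle 90% lay between -0.13 and 0.21, narrower than the -0.28 to 0.30 of the 11232 other genes. The median SE was 0.10 for bright genes and 0.14 for the others, which gives 95% intervals of 0.22 and 0.31 to either side. For 3676 bright genes (94.1%) the 95% interval lay within 0.5 of 0, against 66.1% of the other genes. The tails were uneven in both classes: 71 bright genes reached 0.5 or more upward and 1 reached -0.5 or less, against 168 and 61 of the other genes. The bright class was set with the DEX arrays included, which can itself add to its upward counts here and below. At an unadjusted p under 0.01, 104 bright genes were higher and 2 lower, and 181 and 60 of the others. Counting only shifts under 0.5, 41 of 3958 bright rows were higher (1.04%) and 1 was lower (0.0253%) at that p, and none passed the adjusted p in either direction, the lowest being 0.0544 upward and 0.498 downward.

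The small upward shifts of bright genes with the lowest p were all fully apart between the groups. LOC4336385 had 283, 255 and 267 under mock treatment and 394, 379.8 and 351 under DEX (log2 fold change 0.48, SE 0.09, unadjusted p = 0.000141, adjusted p = 0.0544). *GSTF2*, a glutathione S-transferase gene, had 688, 710.4 and 644 against 991, 877 and 924 (log2 fold change 0.45, SE 0.08, unadjusted p = 0.000217, adjusted p = 0.0736). *YAB4*, given above, was the third. LOC4332590 had 489, 505 and 485 against 710.5, 626 and 633 (log2 fold change 0.41), LOC4332673 512, 496 and 486 against 749, 667 and 647 (0.46) and LOC4338970 613, 582 and 601 against 845, 734 and 860.0 (0.44), with adjusted p of 0.14, 0.145 and 0.173. With the adjustment over 1 row per gene, which tests 15140 rows in place of 54922, all 6 passed (adjusted p = 0.00885 to 0.0433).

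**Figure D3:**
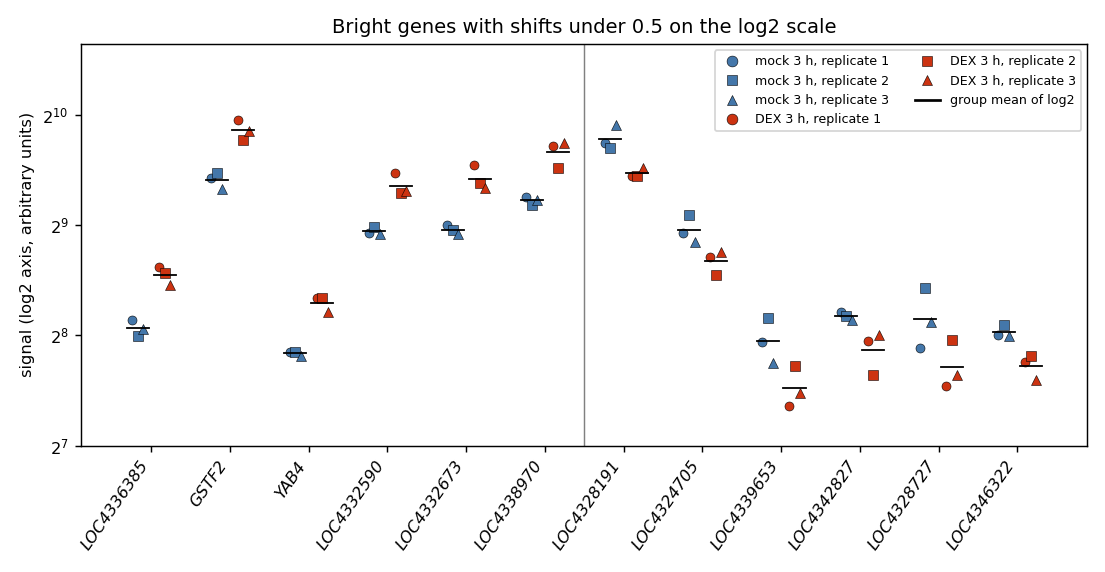
Signal (log2 axis) in each mock (blue) and DEX (red) array of 3 h for the 6 bright genes with the lowest p among upward shifts under 0.5 (left of the line) and among downward shifts under 0.5 (right of it), with bars at the group means of the log2 values. The upward shifts run from 0.41 to 0.48 and the downward ones from -0.43 to -0.28, and none of the 12 passed the adjusted p.

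The downward shifts of bright genes were weaker. LOC4328191 had 857, 830.1 and 964 under mock treatment and 697, 699.6 and 735 under DEX (log2 fold change -0.31, SE 0.10, unadjusted p = 0.00812, adjusted p = 0.498), and it was the only bright gene with a small downward shift at an unadjusted p under 0.01. The next were LOC4324705, with 488, 546 and 462 against 418, 375 and 434 (log2 fold change -0.28), and LOC4339653, with 245, 285 and 215 against 164, 211 and 179 (-0.43). LOC4342827, LOC4328727 and LOC4346322 had log2 fold changes of -0.31, -0.43 and -0.31. The adjusted p of these 5 genes was 0.586 or more.

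No gene fell. Every DEX array lay below every mock array in 842 of 15829 single-gene rows (5.32%), and the opposite order held for 6.75%. Of the genes that were lower in this way, 60 also had an unadjusted p under 0.01, and the genes below are among their largest drops. *CPS1* encodes ent-copalyl diphosphate synthase, an early enzyme of gibberellin synthesis, and had 106, 144 and 116 under mock treatment and 65.6, 75.4 and 65.5 under DEX (log2 fold change -0.82, SE 0.15, unadjusted p = 0.000208, adjusted p = 0.0727). LOC4340095 had 81.2, 65.9 and 75.7 against 38.2, 38.2 and 39.2 (log2 fold change -0.94, adjusted p = 0.264) and LOC4343202 81.5, 89.4 and 77.5 against 60, 48.5 and 44.1 (-0.71, adjusted p = 0.0724). The other genes of this kind with the largest differences were LOC4341691 (-0.75), LOC4335203 (-0.66), LOC9272195 (-0.65) and LOC4326796 (-0.60), at adjusted p from 0.274 to 0.509. With the adjustment over 1 row per gene, 9 genes passed as lower and 133 as higher. The 9 were *CPS1*, LOC4343202, *RR4*, LOC4333765, LOC9267151, LOC4344030, *IAA7*, *RR2* and the α-amylase gene *AMY3D*, at adjusted p of 0.0144 to 0.0466. The pair of rows that passed as lower in the fit of all rows have no gene. The first had signals of 15.0, 18.4 and 16.9 under mock treatment and 7.97, 7.64 and 8.97 under DEX (log2 fold change -1.03, SE 0.14, adjusted p = 0.0101), and the second 43.9, 38.9 and 39.5 against 18.7, 17.8 and 19.95 (log2 fold change -1.11, SE 0.18, adjusted p = 0.0353).

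None of 11 cytokinin response regulators passed. The list holds type-A and type-B regulators together, so its counts and median are not those of type-A genes alone. The log2 fold changes ran from -0.70 to 0.10 with a median of -0.16, beside 0.00 over all genes. Of the 11 members 9 were below 0, as were 7537 of all 15140 genes, and 5 were lower at an unadjusted p under 0.05, where 300 of all 15140 genes were. *RR4* was the gene with the lowest adjusted p of all genes that were lower: its signal was 94.2, 97.3 and 107 under mock treatment and 52.6, 72.3 and 60.2 under DEX (log2 fold change -0.70, SE 0.13, unadjusted p = 0.000178, adjusted p = 0.0656). *RR2* had 259, 228 and 258 against 178, 183 and 188 (log2 fold change -0.44, SE 0.10, unadjusted p = 0.000918, adjusted p = 0.183) and *RR1* 184, 149 and 186 against 117, 136 and 138 (log2 fold change -0.41, SE 0.13, unadjusted p = 0.011, adjusted p = 0.563). These 3 are type-A regulators, and in each of them no DEX array reached the mock arrays. Of the 11 members, 4 were lower with arrays fully apart, as were 5.32% of single-gene rows. *RR9*, also of type A, had 74.2, 85.9 and 88.1 against 81.0, 61.5 and 59.2 with an overlap by replicate 1, and *RR23*, a type-B regulator, had 208, 191 and 207 against 164, 179.7 and 166. *RR5* was dim and had 20.4, 23.1 and 21.0 against 18.6, 20.4 and 32.4. LOG enzymes release active cytokinin, and none of 6 LOG genes passed. *LOGL7* had 332, 306 and 372 against 483, 430.3 and 479 (log2 fold change 0.47, SE 0.11, unadjusted p = 0.00141, adjusted p = 0.244). *LOGL3* had 173, 195 and 178 against 184, 198 and 167 and *LOGL10* 98.1, 104 and 97.7 against 91.2, 121 and 100, both with overlapping arrays. None of 3 cytokinin oxidase genes passed.

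Other lists held no member past the adjusted p. They included cyclins and CDKs (32 members, median -0.01), DNA replication (19, 0.03), kinesins (22, 0.03), ribosomal proteins (12, -0.03), tubulins and actins (9, 0.02), KNOX (7, -0.04), MADS (21, 0.07), NAC (7, 0.00), WRKY (5, 0.06), JAZ/TIFY (8, 0.00), jasmonate synthesis (12, 0.01), ethylene (15, 0.00), cellulose synthases (22, -0.03), glutathione S-transferases (5, 0.14) and chitinases (7, -0.14). So did a list of genes with CPS, KS, KO and KOS names and *GA20OX3* (10, 0.06), not all of which need act in gibberellin synthesis. The cellulose synthase list mixes CESA with cellulose synthase-like (CSL) genes. The list of cyclins and CDKs also holds *KRP1*, *KRP6*, *CKS1* and *Rbr1*, and the jasmonate list was filled by LOX, AOS, AOC and OPR names. The DNA replication genes stayed between -0.14 and 0.11. *CSLC2*, a cellulose synthase-like gene, stood apart from its list with 346, 383 and 302 against 602, 555 and 489 (log2 fold change 0.68, SE 0.12, unadjusted p = 0.000187, adjusted p = 0.0679). *KIN14F* had 357, 342 and 320.4 against 442, 412 and 378 (adjusted p = 0.644). In lists this short a single riser already exceeds the 0.522% of all genes, so the counts and medians are given as a description.

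**Figure D4:**
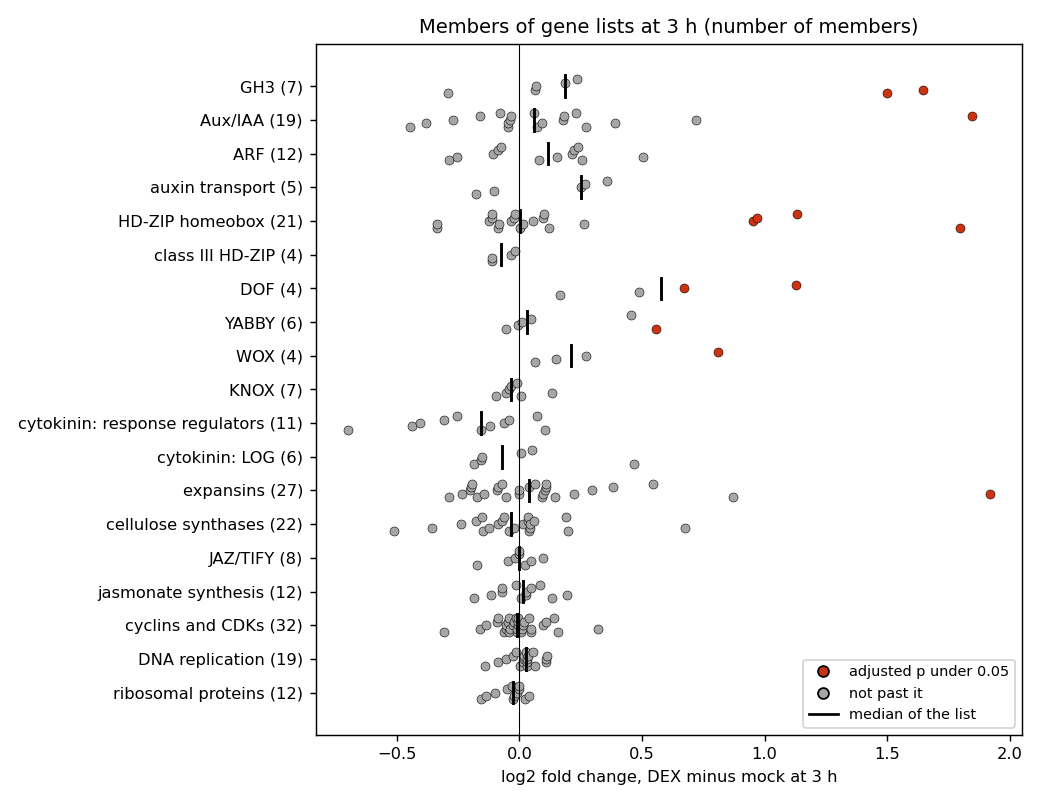
Log2 fold change of DEX over mock at 3 h (horizontal axis) for the members of 19 gene lists, with risers in red, other members in gray and the list median as a bar. *GH3* (2 of 7), HD-ZIP (4 of 21) and DOF (2 of 4) hold more than 1 riser, and the other lists drawn hold 1 or none.

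The 25 largest rises were mostly those of genes without a printable name. LOC4332224 had 220.3, 198 and 173 under mock treatment and 993, 729 and 649.9 under DEX (log2 fold change 1.99, SE 0.18, adjusted p = 0.000938), and LOC4326678 had 106, 94.4 and 82.5 against 465, 322 and 290.4 (log2 fold change 1.91, SE 0.23, adjusted p = 0.00535). LOC4347076, LOC4330480 and LOC4324857 started from signals of 28.8, 23.9 and 31.96, of 44.6, 53.4 and 40.7 and of 21.0, 19.5 and 21.5. Their DEX arrays were 117, 100.5 and 78.1, 195, 167 and 114 and 86.1, 65.8 and 59.6, which is 3.46-, 3.38- and 3.37-fold. LOC9270349 varied more, with 35.8, 34.5 and 29.3 against 125, 59.8 and 89.1, and lost its call in 5 of 6 fits that left out an array. LOC4343768, LOC4324153, LOC4343883, LOC4336422, LOC4324827, LOC4339567, LOC4347702, LOC4330036 and LOC4333227 had log2 fold changes of 1.35 to 1.56. Of these, LOC4330036 alone lost its call when an array was left out, for mock replicates 1 and 3.

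Rows of the same gene did not always move together. LOC4347702 rose on the row with the higher mean over the 12 arrays, with group means of 33.7 and 89.6 at 3 h. Its other row gave 38.2 and 39.5 and was thus the brighter row under mock treatment. The mean by which the row was chosen includes the DEX arrays. LOC4349636 and LOC9270940 passed only on their dimmer rows, with means of 179 against 372 and of 24.4 against 51.3, while their brighter rows gave 1060.0 against 1004 and 52.5 against 46.7; they are not among the 79. In the gene order of the reference, 2 pairs of risers were neighbors: *HOX4* and LOC4347334, and LOC9269670 and LOC4347359. LOC4347334 had 276, 231 and 247 against 459, 369.7 and 378, LOC9269670 34.7, 37.0 and 40.6 against 109.6, 94.2 and 60.4 and LOC4347359 364, 366 and 351 against 889, 687 and 747. Neither pair overlaps in the reference.

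To see how the early risers stood later, the same genes were read in the 12 h arrays, which have mock arrays of their own. Of the 79 genes, 76 were higher and none was lower at 12 h, where 22.8% of all genes were higher and 32.4% lower. The median log2 fold change of the 79 was 1.10 at 3 h and 2.38 at 12 h, and 46 genes were at least 4-fold higher at 12 h. By the test of the difference between the times, 59 of the 79 were larger at 12 h, 3 were smaller and 17 did not pass, and 16.5% and 25.4% of all genes had a positive and a negative difference past the test. The difference contains the 3 h values by which the 79 genes were chosen. *Hox13* went from a log2 fold change of 1.80 at 3 h to 3.83 at 12 h (difference 2.03, SE 0.18, adjusted p = 1.33e-05), *ASA2* from 1.10 to 3.48 (adjusted p = 5.17e-06) and *Roc4* from 0.95 to 3.18 (adjusted p = 8.15e-06). LOC4324857, described above, reached 6.12 (adjusted p = 1.44e-07).

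The exceptions were few. *IAA26* was the only named riser that was smaller at 12 h: its log2 fold change was 1.85 at 3 h and 0.39 at 12 h (difference -1.45, SE 0.37, adjusted p = 0.0112). Its mean signal at 12 h was 35.5 in the mock arrays and 45.7 in the DEX arrays, and it did not pass there (adjusted p = 0.257). LOC4351703 and LOC4339571 likewise went from 0.80 and 0.67 to 0.24 and 0.01 (adjusted p of the difference 0.0261 and 0.00972). *GH3.1* had 1.65 at 3 h and 1.12 at 12 h, a difference that did not pass (adjusted p = 0.164), whereas *GH3-8* went from 1.5 to 3.2 (adjusted p = 0.000119). *HOX4* and *HOX3* also gave no difference past the test (adjusted p = 0.282 and 0.054).

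**Figure D5:**
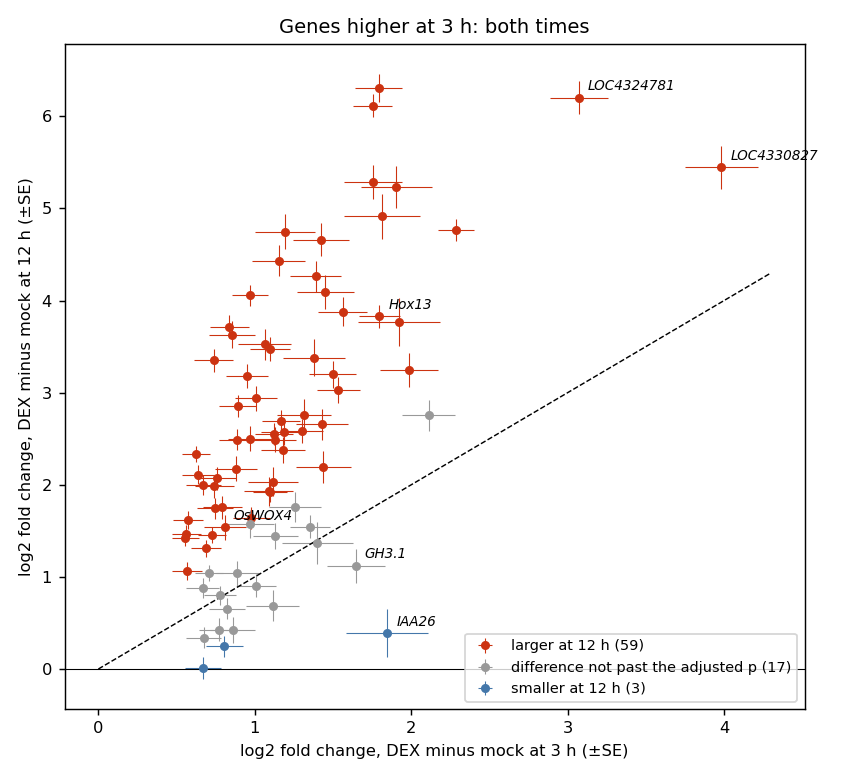
Log2 fold change of DEX over mock at 12 h (vertical axis) against that at 3 h (horizontal axis) for the 79 genes that rose at 3 h, with bars of 1 SE and a dashed line of equal values. Red points (59) are larger at 12 h by the test of the difference, blue points (3) are smaller, *IAA26* among them, and gray points (17) did not pass it.

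Genes that had not passed at 3 h could differ at 12 h in either direction, and those given here passed the adjusted p at 12 h. The bright genes LOC4339653 and LOC4328727, lower without passing at 3 h, were higher at 12 h, with log2 fold changes of 1.33 and 1.6, while LOC4328191 and LOC4324705 were lower, with -1.87 and -3.16. *RR4*, *RR2*, *RR1* and *CPS1* were lower at 12 h, with -1.09, -1.42, -1.34 and -1.54. *YAB4* and *GSTF2* were higher, with 2.08 and 2.10. LOC4338970 turned from 0.44 at 3 h to -0.43 at 12 h (adjusted p of the difference 0.000641). *DL*, *LOGL3* and *LOGL10*, level at 3 h, were lower at 12 h with -1.44, -2.28 and -1.76 (adjusted p of the difference between times 0.000133, 1.01e-05 and 1.33e-05).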

How the data were processed

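RNA of 12 samples, 3 for each of mock and DEX treatment at 3 h and at 12 h, was hybridized to Affymetrix Rice Gene 1.0 ST arrays. The authors processed the scans with Expression Console 1.3 at its standard settings and then with Subio Platform, and the deposited values are normalized log2 signals, 1 column per array, with nothing pooled. The build of the array annotation is not given in the sources used here. Probe rows were paired with genes through the platform annotation, and symbols were taken from RefSeq (assembly ASM3414082v1).

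A model with 1 mean for each of the 4 groups was fitted to all 54922 rows with limma 3.58.1 in R 4.3.3 (lmFit, contrasts.fit and eBayes), and p-values were adjusted over all rows by the Benjamini-Hochberg procedure. Tables and figures were made with Python 3.11.15. The scripts were tested on simulated data. SE and 95% intervals come from the moderated fit. With 3 replicates a group, p-values set a difference against the spread between replicates. That spread was estimated over all 4 groups, the 12 h arrays included.

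The genes named are *OsWOX4*, the 25 largest rises, the 6 bright genes with the lowest p under a shift of 0.5 in each direction, the 8 largest drops at an unadjusted p under 0.01 with arrays fully apart, and in each of 35 gene lists the risers and the 2 largest changes. Other named risers, list members, the brightest risers and neighbors were added after their values were seen. The members and the lists were chosen with earlier results of these data known. Alternatives were other normalizations, a filter on dim rows, the 6 arrays of 3 h alone, other variance models, other sets of rows, the replicate number as a block, and each array left out. Motif shares in promoters were planned and not run, because no promoter sequence was used here. The SAUR and xyloglucan endotransglucosylase lists held 1 member each, with log2 fold changes of 0.06 and -0.02.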

Additional observations from a re-analysis of the deposited data

Results flagged for a closer look

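The DEX effect differed between 12 h and 3 h in the genes below, by the contrast of the 2 effects in the limma fit of all 12 arrays at an adjusted p under 0.05 over all rows. Each value is the log2 fold change at 12 h minus that at 3 h, so a positive value is a larger or less negative effect at 12 h. Most of these genes were named for their values at 3 h, which the difference contains, and the adjusted p runs up to 0.0451.

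Among genes that rose at 3 h, the named ones with a positive difference gave 3.1 for *PSS2*, 2.38 for *ASA2*, 2.23 for *Roc4*, 2.03 for *Hox13*, 1.96 for *4CLL4*, 1.93 for *HSFA4B*, 1.85 for *EXPB11* and 1.70 for *GH3-8*. The difference was 1.43 for *PGIP-1*, 1.36 for *DOF4*, 1.33 for *DOF5*, 1.3 for *OsC3H50*, 1.24 for *OsPP2C09*, 0.91 for *CIPK21*, 0.87 for *YAB5* and 0.73 for *OsWOX4*. Those without a printable name gave 4.52 for LOC4347076, 4.36 for LOC4324857, 3.55 for LOC9269670, 3.53 for LOC4330480, 3.33 for LOC4326678, 3.24 for LOC4339567, 3.13 for LOC4324781 and 2.87 for LOC4347702. Next came 2.64 for LOC4343883, 2.48 for LOC4339548, 2.32 for LOC4343768, 2.0 for LOC4330036, 1.5 for LOC4324153, 1.46 for LOC4330827, 1.39 for LOC4332081 and 1.28 for LOC4339718. The smallest differences of this kind were 1.26 for LOC4332224, 1.23 for LOC4324827, 1.20 for LOC4327386, 0.82 for LOC4347359, 0.76 for LOC4336422 and 0.62 for LOC4329817. A negative difference was found for risers in the values of -1.45 for *IAA26*, -0.66 for LOC4339571 and -0.56 for LOC4351703.

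Among genes that did not pass at 3 h, positive differences were 3.77 for *Os4CL3*, 3.64 for *QHB*, 3.1 for *IMCEL2*, 2.03 for LOC4328727, 1.91 for *EXPB3*, 1.80 for *GH3.6*, 1.75 for LOC4339653 and 1.65 for *GSTF2*. Smaller ones were 1.63 for *YAB4*, 1.45 for *IAA18*, 0.77 for LOC9272195, 0.71 for *LOGL7* and 0.42 for LOC4336385. Negative differences were -3.69 for *RCABP69*, -2.88 for LOC4324705, -2.68 for *YAB1*, -2.39 for *IAA24*, -2.28 for *LOGL3*, -1.81 for *LOGL10*, -1.56 for LOC4328191 and -1.50 for LOC4326796. Further ones were -1.49 for *DL*, -1.29 for *GH3.5*, -1.11 for *YAB2*, -1.02 for *IAA7*, -0.98 for *RR2*, -0.93 for *RR1*, -0.86 for LOC4338970 and -0.75 for *YAB3*. The smallest in size were -0.73 for *HOX10*, -0.72 for *CPS1*, -0.71 for *DOF2*, -0.68 for *OSH1*, -0.64 for *GH3.11*, -0.62 for LOC4343202, -0.50 for *KIN14F* and -0.36 for LOC4332590. *DL*, *LOGL3*, *LOGL10* and *YAB1* are among the negative ones with log2 fold changes close to 0 at 3 h.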

How the results depend on the processing

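The 79 risers were positive under every alternative tried, but for most alternatives this sign was fixed in advance. Other variance models, the block, the 3 h arrays alone and other sets of rows leave the group means unchanged. Leaving out 1 array cannot turn the sign either, because every DEX array was above every mock array. All 79 passed after median centring and after quantile normalization. All 79 also passed with identical rows counted once and with 1 row per gene, where the adjustment runs over fewer rows. So did 74 of the 74 that a filter on dim rows left and 77 with a variance trend. Other alternatives kept fewer of the 79: 3 in the fit of the 6 arrays of 3 h, 43 in the unmoderated test and 29 with the replicate block. Fitting only the 6 arrays of 3 h gave 6 rows higher (132 in the reported fit) and 0 lower (2), 3 single-gene rows higher (81) and 0 bright ones (37). The unmoderated test gave 79 rows higher, 4 lower and 48 single-gene rows higher. The variance trend gave 5 rows lower, 2 single-gene rows lower (0 in the reported fit) and 56 bright rows higher. Without dim rows, 8 rows and 4 single-gene rows were lower. Identical rows counted once gave 4 lower. With 1 row per gene, 133 genes were higher, 9 lower and 60 bright ones higher. An adjusted p under 0.01 left 40 single-gene and 19 bright rows higher, and setting the limit for bright at the median of single-gene rows gave 71. After quantile normalization 1 single-gene row was lower by the fold limit (0).

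With the replicate number as a block, 51 rows were higher, 1 lower, 29 single-gene rows higher and 15 bright rows higher. The deviations of same-numbered mock and DEX arrays correlated at -0.048, 0.17 and 0.0789. Mock replicates 2 and 3 correlated best with the DEX array of their own number, and mock replicate 1 with DEX replicate 3 (0.0673). The labels do not say whether same-numbered arrays form pairs, and these values do not settle it. Leaving out 1 array of 3 h at a time gave 61 (without mock replicate 1) to 120 rows higher, 1 to 11 lower (11 without mock replicate 2), 37 to 72 single-gene rows higher, 0 to 3 lower (3 without DEX replicate 1), 37 to 68 higher and 0 to 2 lower by the fold limit, and 19 to 31 bright rows higher. No bright row was lower in any of these fits. The cause of these differences was not tested.

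For single genes, 1560 of 1576 values kept their direction, and the 16 that did not belong to 9 genes that had not passed. Several alternatives leave the log2 fold change unchanged, so these counts are a description. *YAB1* was 0.004 after median centring. Leaving out 1 array gave ranges of -0.142 to 0.26 for *RR5*, -0.027 to 0.086 for *DL*, -0.052 to 0.073 for *LOGL3*, -0.063 to 0.144 for *LOGL10*, -0.149 to 0.056 for *OSH1*, -0.015 to 0.153 for *GH3.5*, -0.001 to 0.128 for *GH3.11*, -0.098 to 0.097 for *YAB1* and -0.045 to 0.104 for *YAB2*. Of the genes that had not passed, 15 passed under at least 1 alternative. A shift under 0.22 in a bright gene or 0.31 in another lies within the typical 95% interval.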
